A study of Mus musculus with 9 samples.

Results

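The subject here is the adrenergic and cAMP signalling pathway of the mouse heart, read through 9 genes: the receptors Adrb1, Adra1a and Adra1b, the adenylyl cyclases Adcy5 and Adcy6, the phosphodiesterases Pde3a, Pde4b and Pde4d, and the protein kinase A regulatory subunit Prkar1a. They were taken by symbol from the 3 deposited tables that pair the groups. All 9 were listed, out of 15779 genes, and all 9 passed the filter on low values in each comparison. The hearts came from adult C57BL/6J mice. There were 3 libraries of wild-type Mybpc3 heart tissue from mice given saline, 3 of homozygous Mybpc3 R946X tissue (Mybpc3R946X/R946X) from mice given saline, and 3 of homozygous R946X tissue from mice treated with high-dose-exABE8e. The labels number the libraries without saying that each came from a separate animal, so "a heart" stands here for 1 library. The series describes SpRY-based adenine base editors, which change A to G near a guided site, and delivery by the adeno-associated virus AAV9 for expression in cardiomyocytes. What "ex" stands for, the dose in numbers, the sex and the exact age are not given in the sources used here. No mutant group that received the virus without an active editor was analysed here, so effects of the virus and of editing cannot be told apart.

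Noradrenaline and adrenaline reach the heart from sympathetic nerves and the adrenal gland. Beta-adrenergic receptors couple to the G protein Gs, which activates adenylyl cyclase. The cAMP that is made releases the catalytic subunits of protein kinase A from their regulatory subunits, and the kinase then phosphorylates calcium-handling and sarcomere proteins, cardiac myosin-binding protein C among them. Phosphodiesterases break cAMP down and keep the signal local. Alpha-adrenergic receptors of the first class couple to Gq and act through phospholipase C, protein kinase C and calcium instead.

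The start-site regions of the receptors and of Prkar1a are shown first because Adra1b is the member whose level changed, Adrb1 is the main cardiac beta receptor, and Prkar1a holds the only complete cAMP response element found in the members' windows. Sequences were taken from RefSeq on GRCm38.p6, with the bases before each annotated start, read 5′ to 3′ on the gene's strand. RefSeq windows were matched for 6 of the 9 members, 15 windows in all. Capitals mark matches on either strand to the half-site TGACG of the cAMP response element, to the full element TGACGTCA, which contains the half-site, and to the GC box GGGCGG.
Adra1b, first start, chr11:43901238-43901487, minus strand: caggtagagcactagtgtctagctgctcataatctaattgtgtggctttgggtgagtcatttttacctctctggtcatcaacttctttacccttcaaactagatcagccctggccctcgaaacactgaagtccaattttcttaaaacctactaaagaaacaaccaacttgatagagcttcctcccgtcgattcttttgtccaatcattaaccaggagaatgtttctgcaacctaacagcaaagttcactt
Adra1b, inner start, chr11:43836490-43836739, minus strand: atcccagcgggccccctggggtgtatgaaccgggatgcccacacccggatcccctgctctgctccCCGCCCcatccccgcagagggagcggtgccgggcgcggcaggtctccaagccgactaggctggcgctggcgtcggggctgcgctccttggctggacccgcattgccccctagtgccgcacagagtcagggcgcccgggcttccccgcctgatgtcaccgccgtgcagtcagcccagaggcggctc
Adrb1, chr19:56721867-56722116, plus strand: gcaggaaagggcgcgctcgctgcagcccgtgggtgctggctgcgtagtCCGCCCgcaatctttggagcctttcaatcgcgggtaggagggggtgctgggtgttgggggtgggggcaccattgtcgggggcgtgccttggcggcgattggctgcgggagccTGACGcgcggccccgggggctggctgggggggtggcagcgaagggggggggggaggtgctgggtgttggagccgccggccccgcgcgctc
Prkar1a, chr11:109650699-109650920, plus strand: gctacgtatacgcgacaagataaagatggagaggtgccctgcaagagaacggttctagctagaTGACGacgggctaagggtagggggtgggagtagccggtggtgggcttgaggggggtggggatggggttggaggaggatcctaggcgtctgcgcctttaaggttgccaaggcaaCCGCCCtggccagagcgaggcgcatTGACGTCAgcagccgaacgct

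The Prkar1a stretch is 222 bases long, because 28 bases that GENCODE M21 places in a transcript's untranslated region were left off. It holds the full element TGACGTCA at chr11:109650900-109650907. That sequence was present in 1 of the 15 windows of the members and in 1.55% of 32851 windows of the same 250-base length over all genes. The half-site was in 5 of the 15 windows (17.8% of all windows) and the GC box in 6 of the 15 (32.7% of all windows). The windows are not independent. Prkar1a supplied 6 of the 15, with 3 of the 5 that hold a half-site, and 2 of its windows overlap and count the same half-site. Neither Adra1b window had a half-site. The 2 Adra1b windows differ in base composition, with 41.6% G and C before the first start and 72.8% before the inner start, and the inner one holds 1 GC box. Adrb1 has 1 half-site and 1 GC box in a window of 74% G and C. These are matches of letters in these windows, and no binding was measured.

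Each library summed to between 999152 and 999382 on the deposited scale, which sets every library to nearly the same total and is rounded to whole numbers, and between 14151 and 14934 genes were above 0. Whether the scale also accounts for transcript length is not given in the sources used here, so levels were compared between hearts and not between genes. Mybpc3 checked the labels, with 1510, 1795 and 2039 in wild type, 133, 142 and 186 in saline mutants, with 1024, 1374 and 1332 in treated mutants. All 6 cardiomyocyte markers examined were above 0 in every heart, and their summed value ran from 41651 to 48791 in wild type, 42113 to 52060 in saline mutants, with 44875 to 47543 in treated mutants. Single markers went opposite ways between saline mutants and wild type, and limma called none of the 6. Tnnt2 (3708 to 4250 against 4755 to 5258) and Tnni3 (2026 to 2436 against 2836 to 3469) were lower without overlap. Actc1 was higher without overlap (12481 to 13680 against 9667 to 10722), while Myh6, Ryr2 and Myl2 overlapped. Xist was above 0 in 1 library of each group (wild type 1, saline mutant 3 and treated 1), and Adra1b is given with and without those 3 in each comparison, as are the counts of pathway calls and each pathway call lost without them. Treated 1 had both Xist (39) and the Y-linked Ddx3y (38). Wild type 1 (Xist 119) and saline mutant 3 (Xist 351) had Ddx3y at 0. The other libraries of those groups had Ddx3y and no Xist. In whole-heart RNA, fewer cells of a type and less RNA per cell cannot be told apart. Since separate animals are not stated, p-values measure only the spread between these libraries, which may be technical.

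Adra1b, which encodes the alpha-1B adrenergic receptor, was the member that separated the groups. It lies on chromosome 11 from 43774606 to 43901210 on the minus strand (GRCm38, GENCODE M21) and shares no exonic base with another gene there. Its values were 42, 36 and 38 in wild-type hearts (38.7 ± 3.06, SD, n = 3), 20, 18 and 13 in saline mutants (17 ± 3.61), with 28, 28 and 28 in treated mutants (28, with an SD of 0 on the rounded scale). The groups did not overlap in any pairing, with wild type highest and saline mutants lowest. Set against the mean of the 3 wild-type hearts, the level was 44.0% ± 9.33 in saline mutants, and it was 72.4% in treated mutants. The receptor is the Gq-coupled alpha subtype present in rodent cardiomyocytes beside alpha-1A.

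Adra1a, which encodes the alpha-1A receptor, was 11, 19 and 21 in wild type, 16, 16 and 8 in saline mutants, with 7, 20 and 16 in treated mutants. The 3 ranges overlapped, and the lowest heart of each group was the one with Xist. The ratio of Adra1b to Adra1a within a heart was 3.82, 1.90 and 1.81 in wild type, 1.25, 1.13 and 1.63 in saline mutants, with 4.0, 1.40 and 1.75 in treated mutants. The ratio was lower in every saline mutant than in any wild-type heart, while treated hearts overlapped both groups.

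Adrb1 encodes the beta-1 adrenergic receptor, the main target of sympathetic drive in cardiomyocytes. Its values were 19, 21 and 13 in wild type (17.7 ± 4.16), 16, 19 and 18 in saline mutants (17.7 ± 1.53), with 16, 15 and 15 in treated mutants (15.3 ± 0.577). The saline groups had the same mean to the rounding, and the treated hearts lay within the wild-type range. Adra1b over Adrb1 within a heart was 2.21, 1.71 and 2.92 in wild type, 1.25, 0.947 and 0.722 in saline mutants, with 1.75, 1.87 and 1.87 in treated mutants. This ratio separated saline mutants from both other groups.

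**Figure D1:**
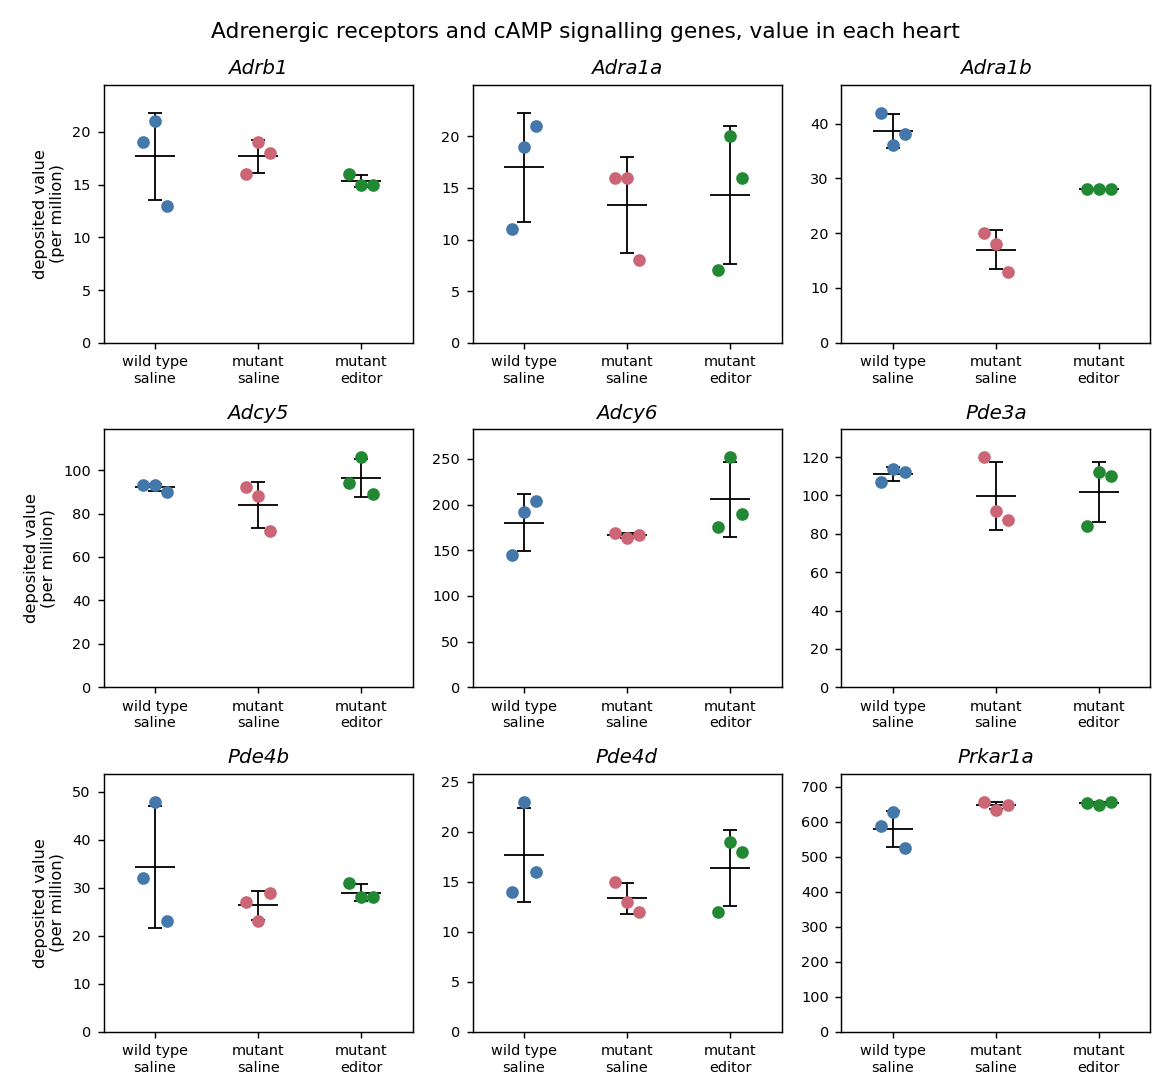
Deposited value (scaled to a common library total, linear axis from 0) of each of the 9 genes in each heart, with points for single hearts, a horizontal bar for the mean of 3 and whiskers for the SD. Adra1b separates all 3 groups, at 36 to 42, 13 to 20 and 28, while Prkar1a in both mutant groups, at 635 to 657, lies above wild type, at 525 to 627, and the other genes overlap between wild type and saline mutant.

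The adenylyl cyclases, which make cAMP, did not separate wild type from saline mutants. Adcy5 was 93, 93 and 90 in wild type, 92, 88 and 72 in saline mutants, with 94, 106 and 89 in treated mutants. Saline mutant 3 was the lowest heart, and the treated range enclosed the wild-type one. Adcy6 was 145, 192 and 204 in wild type (180 ± 31.2), 169, 163 and 167 in saline mutants (166 ± 3.06), with 175, 252 and 190 in treated mutants (206 ± 40.8). All treated hearts were above all saline mutants, and the wild-type range, from 145 to 204, overlapped both. Adcy6 shares 605 of its 6782 exonic bases with Gm29331 on the opposite strand, and whether counting used strand is not given in the sources used here.

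The phosphodiesterases, which break cAMP down, overlapped between all groups. Pde3a, of the family that cardiotonic inhibitors such as milrinone target, was 107, 114 and 112 in wild type, 120, 92 and 87 in saline mutants, with 84, 112 and 110 in treated mutants. The spread was wider in both mutant groups, with SDs of 17.8 and 15.6 against 3.61 in wild type; this difference in spread was not tested. Pde3a shares 741 of 12737 exonic bases with Gm28523 on the other strand.

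Pde4b, a cAMP-specific enzyme that acts near L-type calcium channels, was 32, 48 and 23 in wild type, 27, 23 and 29 in saline mutants, with 31, 28 and 28 in treated mutants. Wild-type hearts spanned the values of the other groups. Pde4d, the related enzyme found at beta receptors and the ryanodine receptor, was 14, 23 and 16 in wild type, 15, 13 and 12 in saline mutants, with 12, 19 and 18 in treated mutants. Of the saline mutants 1 lay within the wild-type range and 2 just under it. GENCODE M21 lists 13 transcripts for Pde4b and 20 for Pde4d, and the deposited value gives 1 number per gene, so shifts between isoforms were not analysed here.

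Prkar1a encodes the type I-alpha regulatory subunit, which holds protein kinase A inactive until cAMP binds. Its values were 587, 627 and 525 in wild type (580 ± 51.4), 657, 635 and 649 in saline mutants (647 ± 11.1), with 654, 647 and 657 in treated mutants (653 ± 5.13). On the deposited scale, both mutant groups lay above every wild-type heart, by a small margin (635 against 627 at the nearest point), and overlapped each other.

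Saline mutants were compared with wild type to ask what the homozygous stop codon changes. Of the 9 genes, 1 passed the test (Adra1b, lower), against 7.70% of the 13632 genes tested in that comparison in either direction and 3.14% in the lower direction. Groups did not overlap for 2 of 9 (Adra1b lower, Prkar1a higher), against 21.6% of all genes, with 8.78% lower and 12.8% higher. Adra1b fell by 1.16 on the log2(value + 1) scale (SE 0.164, 95% interval -1.53 to -0.78, limma adjusted p 0.00359), and it ranked 278th by p. It fell by 0.93 without the 2 libraries with Xist (adjusted p 0.0152). It passed in all 18 alternatives tried, with adjusted p-values from 0.00106 to 0.0282. In the authors' deposited table Adra1b had a log2 fold change of -1.25 (SE 0.356), an unadjusted p of 0.000441 and a place among the 689 genes of the short list, and it was the only 1 of the 9 there.

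The other 8 did not pass in this comparison or in any alternative. Their intervals bound what these 6 hearts could show. Prkar1a differed by 0.16 (95% interval -0.07 to 0.39, limma adjusted p 0.432). With other scalings its difference was smaller, at 0.07 with upper-quartile and 0.09 with median-of-ratios factors. Adrb1 differed by 0.02 (interval -0.39 to 0.44), with a direction that turned under both other scalings. Adcy5 differed by -0.14 (interval -0.40 to 0.12) and Adcy6 by -0.10 (interval -0.40 to 0.20), so a change of 1 in either direction lay outside both intervals. The 3 phosphodiesterases were lower by point estimate, with Pde3a at -0.17 (interval -0.47 to 0.13), Pde4b at -0.31 (interval -0.85 to 0.22) and Pde4d at -0.36 (interval -0.79 to 0.07). Adra1a had the widest interval (-1.03 to 0.35 around -0.34). The median of the 9 was -0.17, beside 0.07 over all genes tested.

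**Figure D2:**
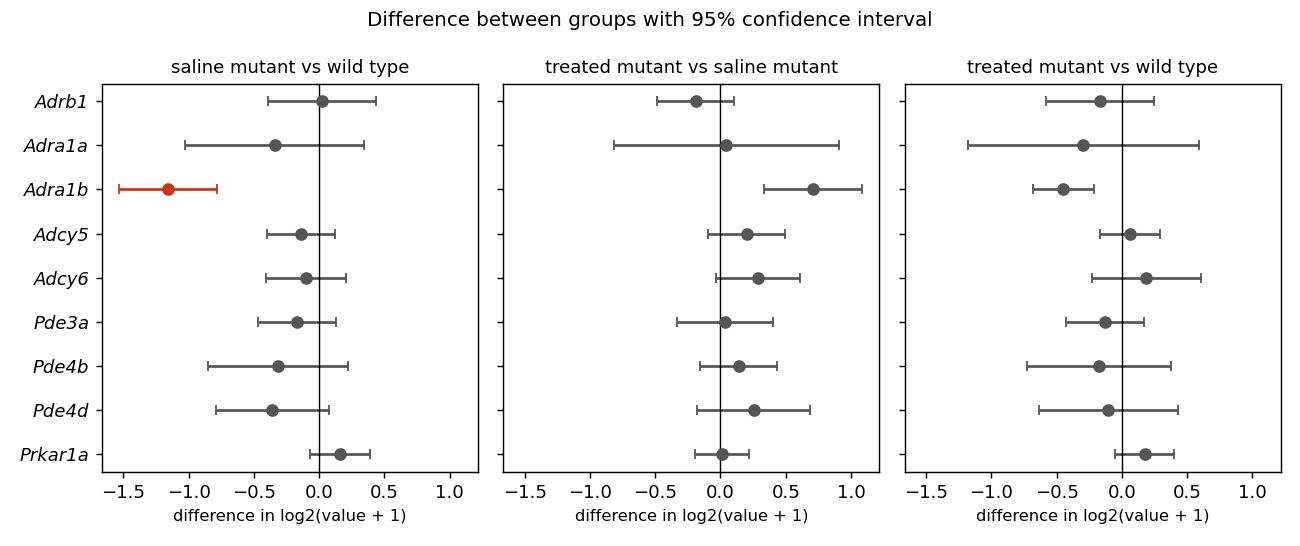
Difference in log2(value + 1) between groups for the 9 genes, with 95% confidence intervals from limma; red marks an adjusted p under 0.05 over all genes tested. Adra1b in saline mutants against wild type (-1.16) is the single called value, and in both other comparisons its unadjusted limma interval also lies off 0 (0.33 to 1.08 and -0.68 to -0.21). In those 2 comparisons as deposited by the authors, its unadjusted p was 0.0724 and 0.158.

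Treated mutants were compared with saline mutants to ask what the treatment changes. None of the 9 passed limma's test, where 0.0147% of the 13636 genes did, and 1 of the 9 (Adra1b) had an unadjusted p under 0.05, as did 8.29% of all genes tested. Adra1b was 0.71 higher (SE 0.164, interval 0.33 to 1.08, limma adjusted p 0.274). Its groups did not overlap, which held for 2 of 9 (Adra1b and Adcy6, both higher) against 9.82% of all genes and 5.48% in that direction. The adjusted p for Adra1b ranged from 0.118 to 0.917 over 18 alternatives, and without the Xist libraries its difference was 0.54 (adjusted p 0.541). The authors' deposited comparison gave Adra1b a log2 fold change of 0.75 (SE 0.418) and an unadjusted p of 0.0724. Adcy6 was 0.29 higher (interval -0.03 to 0.61, adjusted p 0.646). The differences of the other 7 lay between -0.19 (Adrb1) and 0.25 (Pde4d). The median of the 9 was 0.14, beside -0.02 over all genes. Both this comparison and the one before it use the saline mutants.

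Treated mutants were compared with wild type to ask what remained different. None of the 9 passed limma's test, against 0.989% of 13554 genes, and again Adra1b alone of the 9 had an unadjusted p under 0.05, as did 12.5% of all genes tested. Its difference was -0.45 on the log2 scale (SE 0.101, interval -0.68 to -0.21, limma adjusted p 0.118, from 0.0861 to 0.597 over 18 alternatives). Without the Xist libraries it was -0.39 (adjusted p 0.597). In the authors' deposited comparison Adra1b had a log2 fold change of -0.49 (SE 0.345) and an unadjusted p of 0.158. Groups did not overlap for Adra1b and Prkar1a, 2 of 9, against 14.6% of all genes, with 5.43% lower and 9.13% higher. Prkar1a differed by 0.17 (interval -0.05 to 0.40, adjusted p 0.507). The other 7 differed by between -0.30 (Adra1a) and 0.19 (Adcy6), and the median of the 9 was -0.13, beside 0.01 over all genes.

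The 3 genes whose profile over the 9 hearts was most like that of Adra1b, among the 4981 genes averaging 30 or more, were Rpl3l (Pearson r 0.997), Coq9 (0.989) and Etfa (0.988). Rpl3l encodes a ribosomal protein found in heart and skeletal muscle, Coq9 serves coenzyme Q synthesis, and Etfa is a subunit of the electron transfer flavoprotein. Rpl3l was 262, 218 and 257 in wild type, 95, 81 and 50 in saline mutants, with 143, 157 and 150 in treated mutants. As with Adra1b, saline mutant 3 was the lowest heart and the treated hearts sat close together between the saline groups. Coq9 and Etfa had the same order of groups over a narrower range, with saline mutant means of 306 and 438 against 420 and 595 in wild type. These r values describe 9 shared libraries in 3 groups, and genes with any group difference of this order score highly.

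**Figure D3:**
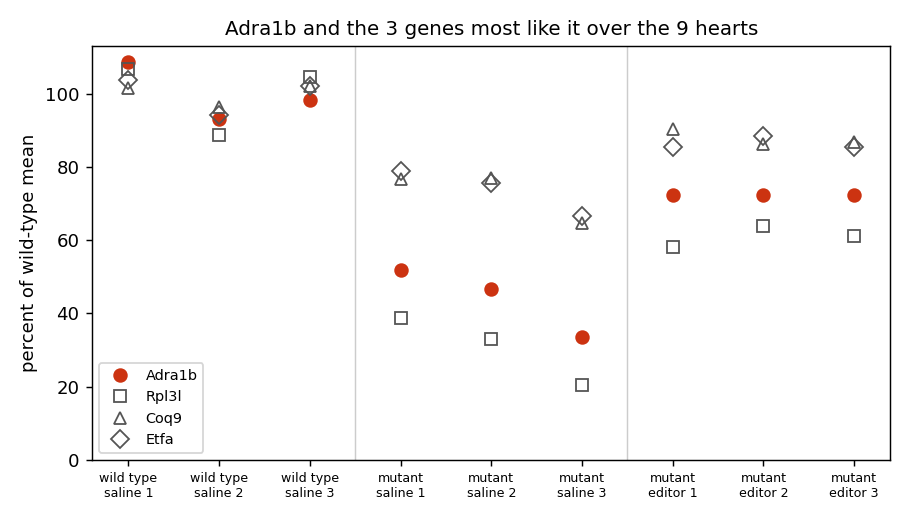
Values of Adra1b (filled) and of Rpl3l, Coq9 and Etfa (open) in each of the 9 hearts, as a percent of that gene's wild-type mean on a linear axis from 0. Adra1b stood at 51.7%, 46.6% and 33.6% in the saline mutants and at 72.4% in each treated heart, with Rpl3l below it and Coq9 and Etfa above it in both mutant groups.

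The rest of the pathway was read from 13 lists holding 139 listed genes besides the 9, of which 132 were tested between saline mutants and wild type. Of these, 9 were called higher and 10 lower (14.4%, beside 7.70% of all genes, 4.56% higher and 3.14% lower), with a median difference of 0.0069. The lists were chosen with earlier results of these data known. They count Mybpc3, the mutated gene, and Dbh, which passed the filter only through wild type, so these shares do not test the pathway. The split of calls over all genes, 622 higher and 428 lower, was 618 and 669 with upper-quartile factors and 686 and 595 with median-of-ratios factors. Without the libraries with Xist 16 were called, and without saline mutant 2 there were 12. In treated against saline mutants 1 of 131 was called, Mybpc3, which rose (0.00733% of all genes were called higher). That count was also 1 without the libraries with Xist. In treated mutants against wild type 2 of 132 were called, Gnao1 and Popdc3, both higher (0.863% of all genes were called higher).

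The other adrenergic receptors had low values, with Adra1d at 1 or 2 and Adra2b between 1 and 3 in every heart, and neither of these, the 2 that were tested, was called. Adra2b was 2, 2 and 3 in wild type and 1 in each saline mutant (adjusted p 0.0769). The list of other receptors that act on cAMP held ones that lower it through Gi, Chrm2 among them, and ones that raise it through Gs. Chrm2, the muscarinic receptor through which the vagus nerve slows the heart, was 99, 122 and 125 in wild type, 75, 77 and 77 in saline mutants, with 63, 91 and 106 in treated mutants. It fell by 0.58 in saline mutants (SE 0.113, limma adjusted p 0.016), and was the only 1 called of the 11 tested in that list. The call was lost without saline mutant 2 (0.0745) or wild type 2 or 3 (0.0569 and 0.0756), and with all 9 libraries in 1 fit (0.0724).

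Of 13 G protein genes, 1 was called. Gnao1, the alpha subunit of Go, was 26, 31 and 27 in wild type, 70, 86 and 96 in saline mutants, with 83, 65 and 58 in treated mutants. It rose by 1.54 in saline mutants (SE 0.139, limma adjusted p 0.000496) and by 1.25 in treated mutants against wild type (SE 0.15, adjusted p 0.0258). The second call was lost when any 1 wild-type heart (adjusted p 0.0945, 0.0746 and 0.087) or treated 2 (0.0609) was left out, without the Xist libraries (0.0908), with a variance prior that follows the mean and no rounding floor, called the trended prior here (0.064) and with the Y-linked covariate (0.0616), and held in 10 of 18 alternatives. Of 12 receptor kinases, arrestins and RGS proteins, Rgs6 was called. Rgs6, which speeds the shut-off of Gi and Go signals and acts on muscarinic slowing of heart rate, was 26, 30 and 22 in wild type, 14, 15 and 16 in saline mutants, with 17, 17 and 19 in treated mutants. It fell by 0.75 in saline mutants (limma adjusted p 0.0147), a call lost without saline mutant 2 (0.0694) or wild type 1 or 2 (0.0645 and 0.0535), and without the Xist libraries (0.0731).

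Of 7 other adenylyl cyclase and associated genes, Adcy7 was called. This cyclase was 24, 33 and 23 in wild type, 39, 53 and 87 in saline mutants, with 38, 35 and 55 in treated mutants, and it rose by 1.07 in saline mutants (limma adjusted p 0.0457). The call was lost without wild type 1 or 3 or saline mutant 2 or 3 (adjusted p from 0.0816 to 0.175), and without the Xist libraries (0.166), where the difference was 0.70. It was also lost with no filter on low values (0.0547), with the trended prior (0.15) and with the Y-linked level as a covariate (0.0593), and so held in 10 of 18 alternatives. Of 14 other phosphodiesterases, Pde8a was called. Pde8a, a cAMP-specific enzyme with high affinity, was 21, 25 and 26 in wild type, 51, 57 and 62 in saline mutants, with 53, 60 and 38 in treated mutants. It rose by 1.21 in saline mutants (SE 0.127, limma adjusted p 0.001) and was called in all 18 alternatives, while treated mutants against wild type stood at 1.02 (adjusted p 0.0567).

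Of 8 other subunits and inhibitors of protein kinase A, Pkig was called. Pkig, an inhibitor peptide of the catalytic subunit, was 149, 135 and 117 in wild type, 85, 93 and 90 in saline mutants, with 115, 104 and 102 in treated mutants. It fell by 0.57 in saline mutants (limma adjusted p 0.0176), with adjusted p-values between 0.0506 and 0.0656 when wild type 1 or 2 or saline mutant 2 or 3 was left out, and 0.0717 without the Xist libraries. None of the 10 A-kinase anchoring proteins was called by limma in any of the 3 comparisons. Akap6, which gathers the kinase near the nuclear envelope and ryanodine receptors, was 139, 196 and 181 in wild type and 196, 206 and 174 in saline mutants.

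Among 7 other genes whose products bind or respond to cAMP, Popdc3 was called higher and Hcn2 lower. Popdc3, a membrane protein of the cAMP-binding Popeye family, was 21, 19 and 23 in wild type, 43, 44 and 49 in saline mutants, with 53, 46 and 36 in treated mutants. It rose by 1.08 in saline mutants (limma adjusted p 0.00115) and by 1.05 in treated mutants against wild type (adjusted p 0.0331). The second call was lost when any 1 heart except treated 3 was left out (adjusted p from 0.0825 to 0.13), without the Xist libraries (0.191), with the trended prior (0.0999) and with the Y-linked covariate (0.0713), and held in 9 of 18 alternatives. Hcn2, a pacemaker-current channel opened by cAMP, was 32, 40 and 37 in wild type, 22, 17 and 12 in saline mutants, with 18, 23 and 29 in treated mutants. It fell by 1.09 in saline mutants (limma adjusted p 0.0131), a call lost without saline mutant 2 (0.0528) and with the trended prior (0.0644). Creb5, called among 11 transcription factors and coactivators, was 11, 13 and 10 in wild type and 19, 16 and 26 in saline mutants. It rose by 0.77 (limma adjusted p 0.0426), and the call was lost when any 1 of the 6 hearts was left out (adjusted p from 0.0504 to 0.15). It held in 7 of 18 alternatives, and was also lost without the Xist libraries (0.191), with no filter (0.0501), with the trended prior (0.107) and with the Y-linked covariate (0.0532).

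A list of 17 genes around protein kinase A substrates was not limited to direct substrates, and held Camk2d, Ppp1ca and Ppp2ca too. Of the 17, 3 were called, all lower (3.14% of all genes were called lower). These were Mybpc3, the mutated gene itself, Cacnb2 and Kcne1. Cacnb2, the beta subunit of the L-type calcium channel, was 62, 71 and 67 in wild type, 45, 41 and 39 in saline mutants, with 41, 59 and 54 in treated mutants. It fell by 0.67 in saline mutants (limma adjusted p 0.00716) and was called in all 18 alternatives. Kcne1, a subunit of the slow potassium channel that adrenergic drive increases, was 14, 14 and 13 in wild type, 7, 5 and 8 in saline mutants, with 7, 7 and 12 in treated mutants. It fell by 0.96 in saline mutants (limma adjusted p 0.0123), a call lost without wild type 1 (0.0657) or saline mutant 2 (0.0504).

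Genes that make, take up or break down catecholamines had 4 calls among 6 tested, counting Dbh, which passed the filter only through wild type. Over all genes 7.70% were called, 4.56% higher and 3.14% lower, and this list, chosen with earlier results known, does not test the pathway. Maoa, which degrades catecholamines, was higher in saline mutants, and Maob, Slc22a3 and Dbh were lower. Maoa was 6, 9 and 7 in wild type, 17, 19 and 24 in saline mutants, with 14, 10 and 11 in treated mutants (1.34 in saline mutants, limma adjusted p 0.00317). Maob, its neighbour on the X chromosome, was 31, 37 and 33 in wild type, 14, 13 and 10 in saline mutants, with 21, 30 and 23 in treated mutants (-1.39, limma adjusted p 0.00109). The pair thus moved in opposite directions in saline mutants, and each was called in all 18 alternatives.

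Slc22a3, a transporter that clears catecholamines from outside nerve endings, was 6, 6 and 5 in wild type, 1 in each saline mutant and 3, 3 and 4 in treated mutants (-1.73 in saline mutants, limma adjusted p 0.00109). Dbh, the enzyme that makes noradrenaline, was 3, 4 and 4 in wild type, was listed at 0 in each saline mutant and was 1, 2 and 2 in treated mutants. It was called lower in saline mutants (limma adjusted p 0.0014), though not with a pseudocount of 0.1 (0.131). Dbh passed the filter on low values only through the wild-type hearts, so its call is not independent of that filter. It was not tested in treated against saline mutants. Slc22a3 and Dbh rest on values of at most 6, where rounding is a large part of the value.

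**Figure D4:**
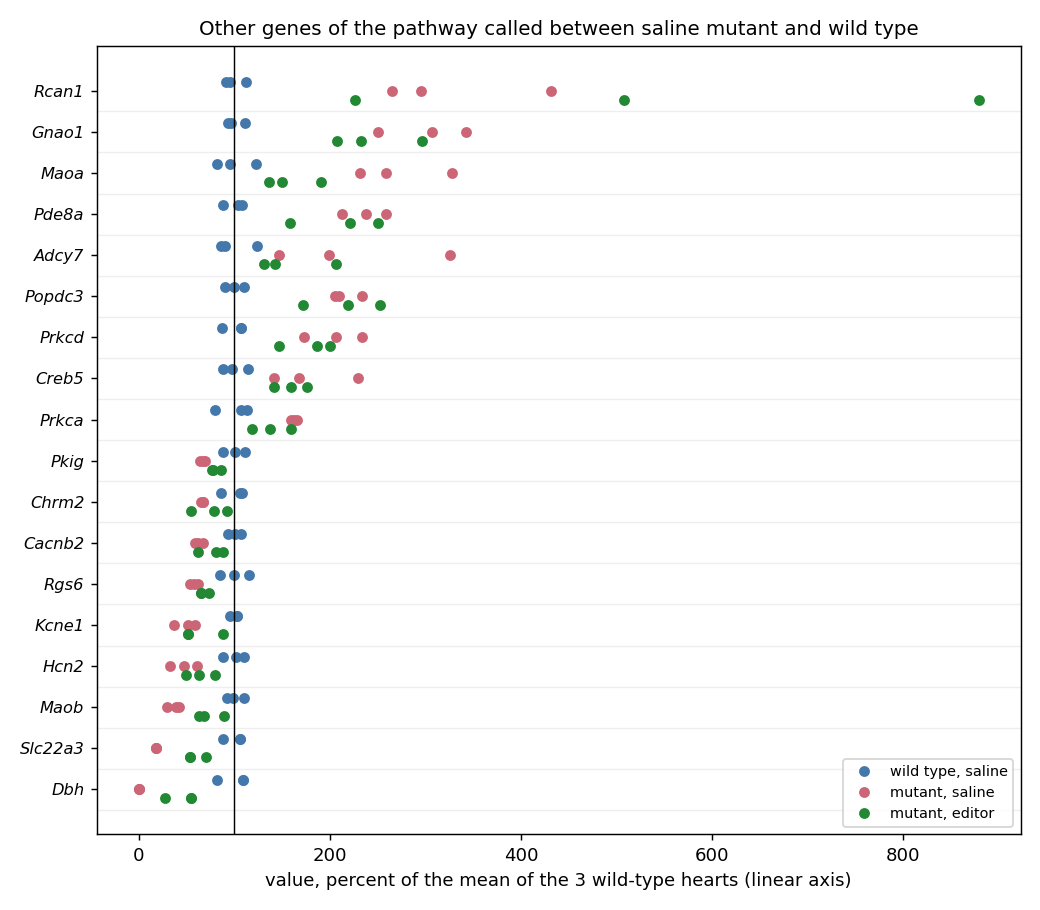
Values of the 18 other pathway genes called between saline mutants and wild type (Mybpc3 left off), as a percent of the wild-type mean on a linear axis, with 1 point per heart. The 9 genes at the top were higher in saline mutants, with a mean of up to 331% for Rcan1, and the 9 at the bottom were lower, down to 0% for Dbh; treated hearts of Rcan1 spread from 226% to 879%.

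Downstream of the alpha receptors and Gq, 3 of 14 genes were called, all higher (4.56% of all genes were called higher). The median difference of the 14 was 0.066, beside 0.068 over all genes tested. Prkca, protein kinase C alpha, was 29, 39 and 41 in wild type, 59, 60 and 58 in saline mutants, with 50, 43 and 58 in treated mutants (0.70 in saline mutants, limma adjusted p 0.0182). Its call was lost without saline mutant 2 (0.0838) or 3 (0.0523) and with the trended prior (0.0551). Prkcd, the delta form, was 16, 16 and 13 in wild type, 26, 31 and 35 in saline mutants, with 28, 30 and 22 in treated mutants (0.98, limma adjusted p 0.00536). Rcan1, a calcineurin regulator that is itself induced by calcineurin, was 69, 81 and 66 in wild type, 311, 213 and 191 in saline mutants, with 633, 366 and 163 in treated mutants (1.69, limma adjusted p 0.001). Treated hearts ran from below to above the saline mutants for Rcan1. Among called genes of the pathway, Cacnb2, Chrm2, Gnao1, Popdc3, Prkca, Rgs6 and Slc22a3 share exonic bases with a gene on the opposite strand. Creb5 shares 164 of its 25021 exonic bases with Gm25818 on the same strand.

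Markers of other cells of the heart were read beside these results, and their part in them was not tested. The summed value of 5 fibroblast markers was 959 to 1325 in wild type, 1509 to 2295 in saline mutants, with 1121 to 1391 in treated mutants. The 6 smooth muscle and pericyte markers summed to 1206 to 1468, 940 to 1204 and 1001 to 1155, and the 5 endothelial markers to 847 to 1190, 776 to 886 and 784 to 933. Macrophage markers summed to 293 to 418, 324 to 617 and 326 to 411. The 5 red blood cell markers summed to 104 to 313, 69 to 85 and 140 to 158. The 4 nerve and Schwann cell markers in the tables, Dbh among them, summed to 9 to 12, 3 to 6 and 7 to 8. The 2 atrial markers in the tables went opposite ways between saline mutants and wild type, with 1 called higher and 1 lower. Kcnj3 was 54, 48 and 51 in wild type, 10, 11 and 9 in saline mutants, with 23, 30 and 28 in treated mutants, while Myl4 was 1 in each wild-type heart, 3, 3 and 5 in saline mutants, with 2, 2 and 3 in treated mutants.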

How the data were processed

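The members, the pathway lists and the tests were chosen with earlier results of these data known. Per the labels' protocols, polyA RNA from adult hearts was sequenced in 9 libraries. HISAT2, HTSeq and DESeq2 and the build mm10 are named in the submitters' processing notes, without roles. The authors' value for each library is handled here as a score, a whole number scaled to a common total, so depth is unknown and no counting error could be computed. The authors deposited a mean signal, log2 fold changes with their SE and a test score for each comparison. In the deposited tables the column headed as the adjusted p-value equals the unadjusted p-value of that score.

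The test was limma 3.58.1, run under R 4.3.3 separately for each pair of groups. It used log2(value + 1) over genes with a mean of at least 1 in the 6 libraries. Residual variances were held at or above the rounding variance, and prior degrees of freedom came from genes with a mean of at least 30. Benjamini-Hochberg adjustment ran over all genes, with calls at 0.05. Fold changes of low genes are understated. The procedure was tested on simulated data, with changes given to 200 genes with a mean of at least 10. It called 77.5%, 75.1% and 78.6% of log2 changes of 1 in the 3 comparisons, in the order given above. It called 0% of changes of 0.5, so a gene of that size left uncalled is not shown to be unchanged. In saline mutants against wild type 1050 genes were called, which loosens the adjusted threshold, and Pkig (-0.57) was among them. The simulated percentages therefore do not give the power of that comparison. Named genes were the 9, every called pathway gene, and otherwise up to 3 per list by mean value. Some genes of the pathway are not reported here and are left out of the lists and their counts. Alternatives changed the pseudocount, filter, scaling, variance step, libraries, sex-linked terms and replicate block.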

Additional observations from a re-analysis of the deposited data

How the results depend on the processing

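Each comparison was recomputed under 18 alternatives. Adra1b kept its call in saline mutants against wild type in all 18, and the number of the 9 genes called stayed at 1, 0 and 0 in the 3 comparisons. Same-numbered libraries are not stated to share more than a number. Correlations of their deviations ran from -0.417 to 0.621, with 3 of 9 pairs above 0.1. The highest was for wild type 1 and treated 1, both with Xist, and what they share was not tested. With the replicate block, the adjusted p of Adra1b in saline mutants against wild type was 0.0021, the genes called were 30 in treated against saline mutants and 35 in treated mutants against wild type, and 0 pathway genes were called in the last comparison. Under the block the adjusted p was 0.0636 for Creb5 in saline mutants against wild type, and 0.0518 for Gnao1 and 0.0749 for Popdc3 in treated mutants against wild type. Genes called in saline mutants against wild type were 556 without the Xist libraries and 506 to 1029 with 1 library left out (506 without saline mutant 2), with 12 to 20 pathway genes. Genes called in treated against saline mutants were 6 with a mean of at least 10, 10 with upper-quartile and 10 with median-of-ratios factors, 32 without the rounding floor, 14 with the prior from all genes, 13 with all 9 libraries in 1 fit, and 2 to 8 with 1 library left out. Pathway genes called there were 2 without the rounding floor and 2 in the joint fit. Genes called in treated mutants against wild type were 86 with no filter, 77 without the rounding floor, 243 with the prior from all genes, 236 in the joint fit, 9 without the Xist libraries, 29 with the Y-linked level as a covariate, and 1 to 133 with 1 library left out. Pathway genes called there were 4 with upper-quartile factors, 1 without the rounding floor, 5 with the prior from all genes, 5 in the joint fit, 0 without the Xist libraries, 0 with the Y-linked covariate, and 0 to 5 with 1 library left out. The cause of these moves was not tested.

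Of the log2 differences that changed sign, none was a called value. In saline mutants against wild type, Adrb1 was -0.065 with upper-quartile and -0.045 with median-of-ratios factors, and -0.17 to 0.15 with 1 library left out. In treated against saline mutants, Popdc3 was 0.015 with median-of-ratios factors and 0.035 with the Y-linked covariate, which gave -0.25 for Adra1a and -0.054 for Pde3a. Without the Xist libraries Rcan1 was -0.075 and Creb5 was 0.12. With 1 library left out, the ranges were -0.26 to 0.46 for Adra1a, -0.054 to 0.18 for Pde3a, -0.00074 to 0.024 for Prkar1a, -0.15 to 0.12 for Popdc3, -0.30 to 0.038 for Creb5 and -0.011 to 0.36 for Chrm2. In treated mutants against wild type, Adcy5 was -0.011 with upper-quartile factors. With 1 library left out, the ranges were -0.0081 to 0.12 for Adcy5, -0.42 to 0.091 for Pde4b, -0.25 to 0.093 for Pde4d, -0.58 to 0.12 for Adra1a and -0.20 to 0.00045 for Pde3a. Depth is unknown, and rounding to whole numbers limits genes with values of a few units.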
